A study of Drosophila melanogaster with 6 samples.

Results

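Translation initiation and elongation factors are the soluble proteins that bring a ribosome to the start codon of an mRNA and then carry it along the coding sequence. The genes described here were all those whose FlyBase symbol begins with eIF (initiation) or eEF (elongation), a rule that uses names and no measured value. It found 50 genes, 44 eIF and 6 eEF, of the 17489 genes in the count tables. All 50 are annotated as protein coding. The same rule matched 2 further symbols, *eEF1alpha1* and *eEF5*, whose identifiers are not in the tables used here, so these genes were not analysed here and no share of *eEF1alpha2* within its pair could be formed.

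The sugar diet group was 3 libraries from male *Drosophila melanogaster* kept on 30% sucrose from day 5 to day 12 of age, and the control diet group was 3 libraries from males kept on 5% sucrose over the same days. Both groups had the genotype that the labels write as Gr5a:Pclc429>UAS-Rpl3-3XFLAG. All flies thus carried the c429 mutation of *Pcl* (Polycomblike, a protein that associates with the Polycomb complex that methylates histone H3) and a FLAG-tagged ribosomal protein driven by *Gr5a*-GAL4, and no library without the mutation was analysed here. Each biological replicate was made from 300 heads, tagged ribosomes were pulled down with an anti-FLAG antibody, and whether a given library holds the pulled-down RNA or the total RNA of the lysate is not said in the labels.

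In cap-dependent initiation, eIF4E binds the cap of the mRNA, eIF4G bridges it to the small ribosomal subunit, and the helicase eIF4A, helped by eIF4B and eIF4H, unwinds the leader. The large complex eIF3 holds the small subunit, while eIF2 brings the initiator tRNA and is recharged with GTP by eIF2B. In elongation, the eEF1 complex delivers aminoacyl-tRNAs and eEF2 moves the ribosome along. *Drosophila* has an expanded set of genes for some of these proteins. Its eIF4E family has many members, of which *eIF4E3* is known to be needed for spermatogenesis in this species, and several eIF3 subunits have a second copy.

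The libraries held 12617127 to 24076315 sense counts, and all same-diet libraries differed from each other by more than sampling noise. Marker lists for cell types showed that the libraries contained RNA of many kinds of cells. Markers of neurons summed to 5137 to 6025 CPM (counts scaled to 1 common library total) on the sugar diet and 5150 to 5750 CPM on the control diet, with 0 of 6 called between diets. Markers of sweet taste neurons, the labelled cell type, summed to only 0.418 to 2.58 CPM on the sugar diet and 0.955 to 2.50 CPM on the control diet, and 4 of these 8 genes were at 0 in all libraries. Of 29 testis genes 25 were higher on the sugar diet, as were 12 of 12 accessory gland genes and 6 of 8 midgut genes, while 3 of 7 yolk and eggshell genes were lower. In bulk libraries such as these, fewer cells of a type and less RNA per cell cannot be told apart.

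The diet difference of the 50 genes divided by abundance. All 8 genes that rose on the sugar diet were rare: the cap-binding genes *eIF4E3*, *eIF4E4*, *eIF4E5* and *eIF4E7*, the helicase cofactor gene *eIF4H2*, and the second copies *eIF3d2*, *eIF3f2* and *eIF3g2* of eIF3 subunit genes. By the Wald test of DESeq2 with Benjamini-Hochberg adjusted p (q) under 0.1, 8 of 50 members were higher on the sugar diet, beside 14.0% of all genes tested. One more member, the elongation factor gene *eEF1alpha2*, was lower, beside 0.54% of all genes, which makes 9 called in either direction, beside 14.5%. The share of members called higher, 16%, was near that of all genes and is not a result about translation factors as a class. The edgeR quasi-likelihood test called 7 members higher and 0 lower. Over all genes it called 13.6% higher and 0.34% lower, 13.9% in all. In DESeq2, 15 of the 50 members had an unadjusted p under 0.05, beside 2628 of the 16134 genes with a count.

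A test of practical equivalence, which asks whether a fold change lies within 1.5-fold in either direction, called 37 of the 50 members practically unchanged, against 40.6% of all genes with a count. These 37 include *eEF1alpha2*, whose fall was within the margin. Only 5 members were neither changed nor practically unchanged, namely *eEF1gamma*, *eEFSec*, *eIF2Bepsilon*, *eIF4E6* and *eIF6*. Among the 40 members that averaged 100 or more normalized counts (counts divided by the DESeq2 size factor of their library), 0 were called higher and 1 lower by DESeq2, beside 3.86% and 0.929% of all genes of that abundance, and 37 were practically unchanged, beside 83.0%. Of these 40, 7 had an unadjusted p under 0.05 in DESeq2, beside 649 of the 7749 genes of that abundance, and edgeR called 0. The median log2 fold change (sugar over control) was −0.10 over the 50 members, 33 of which were below 0, and 0.01 over all genes, 47.9% of which were below 0. It was −0.15 over the 40 abundant members, 31 of which were below 0, and −0.04 over all genes of that abundance, 62.2% of which were below 0. The other 10 members had means under 100, and 8 of them are those that rose, beside 26.0% of all tested genes under that level.

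**Figure D1:**
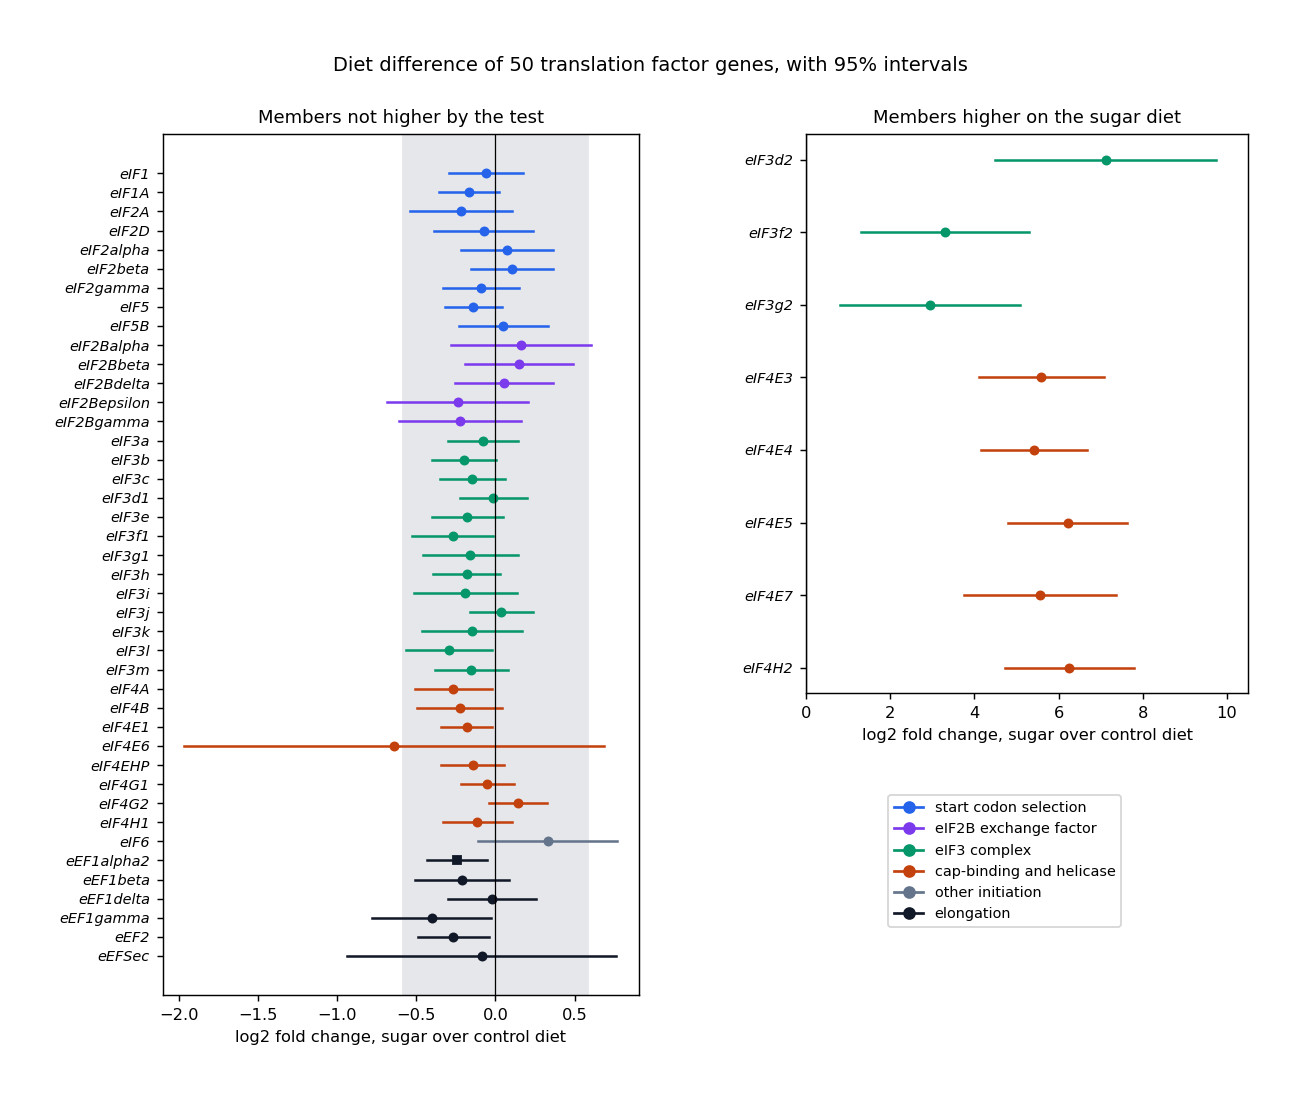
Log2 fold change of each of the 50 members, sugar diet over control diet, from DESeq2 with 95% intervals (x axis), coloured by role. The shaded band marks 1.5-fold in either direction. In the left panel 42 members lie between −0.64 and 0.33, with the square marking *eEF1alpha2* (−0.24), and in the right panel, on its own scale, the 8 members that rose lie between 2.94 and 7.12.

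The eIF4E family held 7 of the genes, and its members behaved in different ways. *eIF4E5* (FBgn0035823, chromosome 3L, 7894880 to 7896009, plus strand) had normalized counts of 93.9, 117 and 243 in the sugar diet libraries (replicates 1 to 3, an order kept throughout), against 2.34, 3.02 and 0.984 in the control diet libraries. *eIF4E4* (FBgn0035709, chromosome 3L, 6664224 to 6665641, minus strand) had 78.1, 123 and 236 on the sugar diet, against 1.56, 3.02 and 5.91 on the control diet. *eIF4E3* (FBgn0265089, chromosome 3L, 8229224 to 8230568, plus strand) had 56.7, 84.4 and 145 on the sugar diet, against 2.34, 0 and 2.95 on the control diet. For each of these 3 cap-binding genes the lowest sugar diet library was far above the highest control diet library, and sugar diet replicate 3 was the highest. The same held for *eIF4E7* (FBgn0040368, chromosome X, 1158599 to 1162389, minus strand), with 40.0, 40.3 and 110 on the sugar diet against 1.56, 1.51 and 0.984 on the control diet.

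The size of these differences is limited by the few control diet reads. Over its 3 libraries the control diet gave 6 reads of *eIF4E5*, 10 of *eIF4E4*, 6 of *eIF4E3* and 4 of *eIF4E7*. With the reads pooled by diet and scaled by size factors, the ratio of sugar to control was 74.1 for *eIF4E5* (exact 95% counting interval 33.8 to 203), 42.8 for *eIF4E4* (23.0 to 89.8), 46.7 for *eIF4E3* (21.2 to 128) and 46.6 for *eIF4E7* (17.9 to 173). These intervals cover counting error only and overlap widely, so the 4 genes cannot be ordered by the size of their rise. The fitted log2 fold changes were 6.21 ± 0.73, 5.41 ± 0.64, 5.59 ± 0.76 and 5.56 ± 0.92 (SE) in the same order. Their DESeq2 q values were 1.21e-15, 4.05e-15, 1.01e-11 and 4.08e-08, and their edgeR q values lay between 0.000898 and 0.00165.

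The remaining 3 genes of the family did not rise. *eIF4E1*, which encodes the general cap-binding protein, had 3659, 3696 and 3541 normalized counts on the sugar diet and 4234, 4010 and 4103 on the control diet. Every sugar diet library was below every control diet library, yet the difference was small (log2 fold change −0.18 ± 0.08 SE, DESeq2 q = 0.167) and within the 1.5-fold margin. *eIF4EHP*, whose product binds the cap without binding eIF4G and is known as a repressor of translation in the *Drosophila* embryo, had 6007, 5943 and 5004 on the sugar diet and 6294, 6391 and 6051 on the control diet (log2 fold change −0.14 ± 0.10 SE), also within the margin. Of its exon bases 6.96% are shared with *Syx1A* on the same strand, where reads count for neither gene. *eIF4E6* was near the limit of detection on both diets, with 12.1, 12.2 and 10.7 on the sugar diet and 11.7, 30.2 and 13.8 on the control diet. The libraries overlapped, the 95% interval of its log2 fold change ran from −1.97 to 0.68, and neither a change nor equivalence was called, so *eIF4E6* was the only rare gene of the family that was not called higher.

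**Figure D2:**
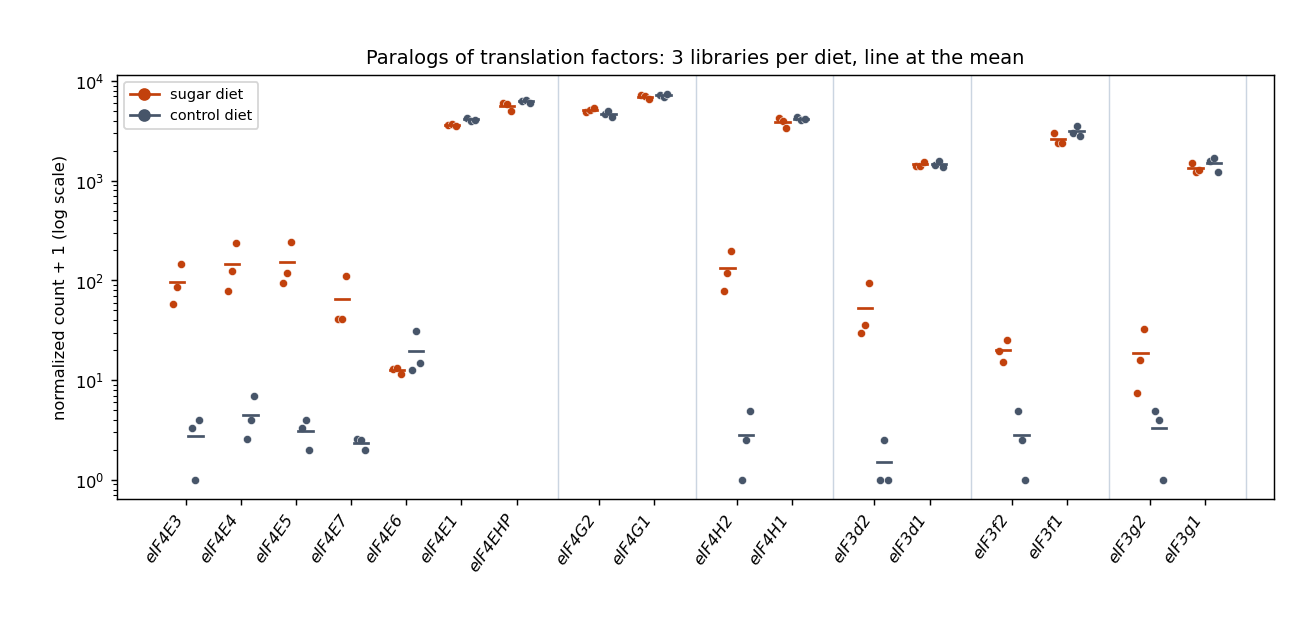
Normalized count plus 1 (y axis, log scale) of the 17 genes of 6 paralog families, with a point per library and a line at the mean of the 3 libraries of each diet. In *eIF4E3*, *eIF4E4*, *eIF4E5*, *eIF4E7*, *eIF4H2*, *eIF3d2*, *eIF3f2* and *eIF3g2* the sugar diet points lie above all control diet points, while the abundant paralog of each family lies at a similar height on both diets.

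Usage within a family was read from CPM per kilobase of exon, since the genes differ in length. The genes *eIF4E3* to *eIF4E7* summed to 9.32%, 12.2% and 22.6% of the family level in the sugar diet libraries, against 0.831%, 1.79% and 1.08% in the control diet libraries. The means were 14.7% ± 7.0 on the sugar diet and 1.23% ± 0.50 on the control diet (SD, n = 3 libraries each). The sugar diet shares were all higher and were spread over a wide range, while *eIF4E1* held 55.3% ± 3.0 on the sugar diet and 64.6% ± 1.3 on the control diet and remained the main cap-binding gene in every library. *eIF4EHP* held 30.0% ± 4.0 on the sugar diet and 34.1% ± 0.8 on the control diet. Among the rare genes, *eIF4E5* held 4.99%, *eIF4E4* 4.74%, *eIF4E3* 3.09% and *eIF4E7* 1.30% on the sugar diet, against 0.0727%, 0.12%, 0.0596% and 0.0289% on the control diet. The share of *eIF4E6* was 0.578% ± 0.061 on the sugar diet and 0.952% ± 0.523 on the control diet, with overlapping libraries.

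By exact permutation of the libraries (two-sided), each of these shares but that of *eIF4E6* (p = 0.3) differed with p = 0.1, the smallest value that 3 against 3 libraries can give. Over the 13 shares tested, the Benjamini-Hochberg adjusted value of the exact p = 0.1 was 0.118. With 3 against 3 libraries no adjusted value could fall under 0.1 whatever the data, so these tests cannot decide whether a share differed. The shares of the eIF4E family also sum to the whole, so their tests are not separate. Without division by exon length, the summed share of *eIF4E3* to *eIF4E7* differed by 4.61 percentage points in place of 13.5, because these genes are shorter than *eIF4E1* and *eIF4EHP* (1020, 1031, 1040, 1638 and 686 exon bases for *eIF4E5*, *eIF4E4*, *eIF4E3*, *eIF4E7* and *eIF4E6*, against 2235 and 6418).

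The other parts of the cap-binding machinery were mostly level between diets. *eIF4G1*, the main scaffold gene, had 7232, 7056 and 6540 normalized counts on the sugar diet and 7271, 6906 and 7386 on the control diet. *eIF4G2*, the second scaffold gene, known in *Drosophila* for its role in male germ cell meiosis, had 4946, 5121 and 5405 on the sugar diet and 4647, 4996 and 4375 on the control diet (log2 fold change 0.14 ± 0.09 SE). The libraries overlapped and both genes were within the margin, so *eIF4G2* stands apart from the rare paralogs in being abundant on both diets. Its share of the eIF4G pair was 34.9% ± 2.2 on the sugar diet and 31.9% ± 2.2 on the control diet (exact permutation p = 0.2, adjusted 0.217, n = 3 each). Of its exon bases 8.56% are shared with *CG33111* on the same strand.

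*eIF4A*, the RNA helicase gene, had 30279, 23907 and 23916 normalized counts on the sugar diet and 31754, 34248 and 27879 on the control diet. Sugar diet replicate 1 lay within the control diet range and the other sugar diet libraries below it (log2 fold change −0.27 ± 0.12 SE, DESeq2 q = 0.199), within the margin. The cofactor gene *eIF4H1* had 4227, 4008 and 3363 on the sugar diet and 4363, 4024 and 4174 on the control diet, also within the margin. Its paralog *eIF4H2* (FBgn0039797, chromosome 3R, 30726087 to 30728052, plus strand) had 77.2, 118 and 199 on the sugar diet and 0, 1.51 and 3.94 on the control diet. *eIF4H2* rose by a pooled ratio of 77.1 (counting interval 32.8 to 239, against 5 control diet reads) and a fitted log2 value of 6.25 ± 0.78 (SE), which DESeq2 called at q = 1.06e-13 and edgeR at q = 0.00135. Its share of the pair was 4.07%, 6.41% and 12.1% on the sugar diet, against 0%, 0.0873% and 0.219% on the control diet, with no overlap between diets. The difference of 7.41 percentage points was 3.37 without division by exon length. *eIF4B*, the remaining member of this group of 13, was within the margin, which leaves 5 higher, 7 practically unchanged and *eIF4E6* neither.

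The eIF3 complex is encoded by 16 of the genes, 13 for its subunits a to m and 3 second copies. All 13 main subunit genes were practically unchanged, with log2 fold changes from −0.29 for *eIF3l* to 0.04 for *eIF3j*, and the 3 second copies were the only ones called higher. Per length, the main subunit genes lay between 43.4 and 144 CPM per kilobase on the sugar diet and between 39.8 and 145 on the control diet. *eIF3d1*, a gene whose human counterpart can itself bind the cap, had 1421, 1396 and 1558 normalized counts on the sugar diet and 1451, 1583 and 1388 on the control diet. *eIF3f1* had 2984, 2390 and 2405 on the sugar diet and 3017, 3545 and 2828 on the control diet, and *eIF3g1* had 1521, 1214 and 1287 on the sugar diet against 1575, 1707 and 1211 on the control diet. These 3 abundant copies overlapped between diets.

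Their second copies were at a few reads on the control diet. *eIF3d2* (FBgn0037994, chromosome 3R, 12192703 to 12195011, minus strand) had 28.8, 34.7 and 93.9 normalized counts on the sugar diet and 0, 1.51 and 0 on the control diet, where a single read was counted. Its pooled ratio of 154 therefore has a counting interval from 27.2 to 6107, and its fitted log2 fold change was 7.12 ± 1.34 (SE, DESeq2 q = 2.1e-06, edgeR q = 0.003). *eIF3f2* (FBgn0033069, chromosome 2R, 6200853 to 6201956, plus strand) had 18.6, 14.1 and 24.2 on the sugar diet and 3.91, 1.51 and 0 on the control diet. *eIF3f2* rose by a pooled ratio of 9.31 (4.04 to 26.4), with a fitted log2 value of 3.30 ± 1.02 (SE) that DESeq2 called at q = 0.0105 and edgeR at q = 0.0282, and without sugar diet replicate 3 its DESeq2 q was 0.101.

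The weakest of the 8 was *eIF3g2* (FBgn0038796, chromosome 3R, 20408265 to 20409243, plus strand), with 6.51, 15.0 and 32.0 normalized counts on the sugar diet and 3.91, 3.02 and 0 on the control diet. The libraries did not overlap, but sugar diet replicate 1, with 7 reads, was close to control diet replicate 1, with 5 reads. Its pooled ratio was 7.45 (3.39 to 19.4) and its log2 fold change 2.94 ± 1.09 (SE, DESeq2 q = 0.0524). edgeR left it out for low counts, and the call was lost with unstranded counts (log2 fold change 1.29, DESeq2 q = 0.43), with the replicate number as a block (q = 0.261) and without sugar diet replicate 2 (q = 0.217), sugar diet replicate 3 (q = 0.617), control diet replicate 2 (q = 0.111) or control diet replicate 3 (q = 0.189). As shares of their pairs on the sugar diet, *eIF3d2* held 3.05% ± 1.84, *eIF3g2* 1.42% ± 1.05 and *eIF3f2* 0.909% ± 0.283. On the control diet they held 0.0287% ± 0.0497, 0.148% ± 0.134 and 0.0711% ± 0.0818 (SD, n = 3 each). Without sugar diet replicate 3 the difference in share was 1.96 percentage points for *eIF3d2* in place of 3.02, and 0.715 for *eIF3g2* in place of 1.27.

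**Figure D3:**
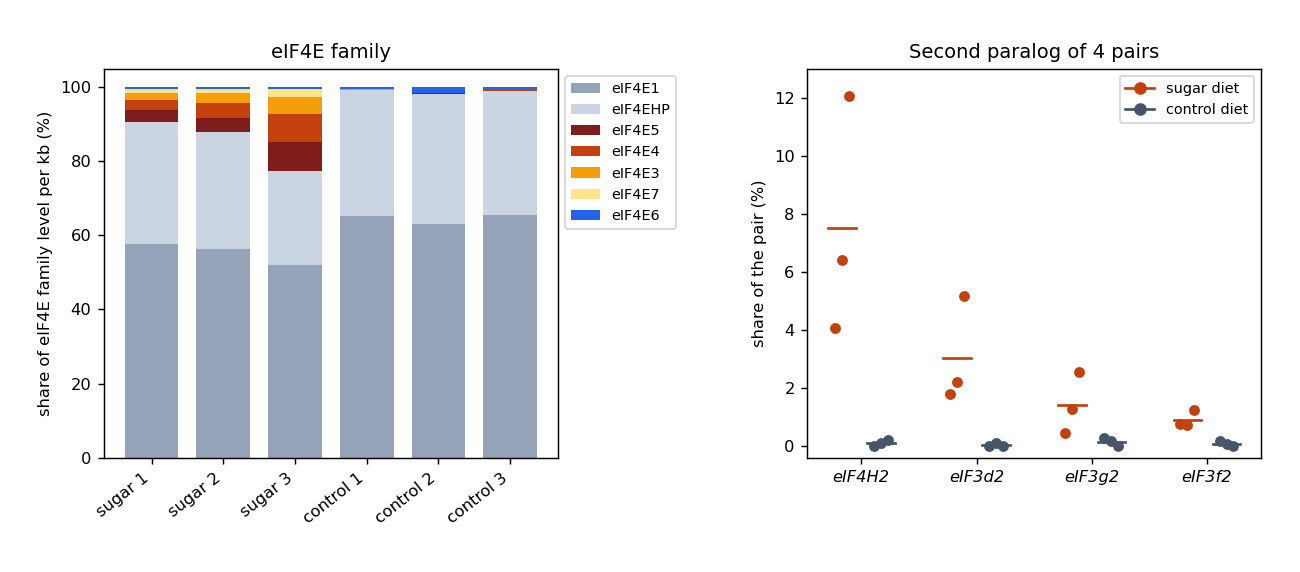
Left, share of the eIF4E family level per kilobase (y axis, %) held by each of its 7 genes in each library, stacked to the whole. Right, share of its pair (y axis, %) held by the second paralog of 4 pairs, with a point per library and a line at the mean. The rare eIF4E genes take 9.32% to 22.6% on the sugar diet and 0.831% to 1.79% on the control diet, and *eIF4H2* takes 4.07% to 12.1% on the sugar diet and at most 0.219% on the control diet.

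The 8 genes that rose resembled each other in their values by library. They were the highest in sugar diet replicate 3 in 8 of 8 cases, and in 7 of 8 cases the normalized counts stood in the order replicate 3 over replicate 2 over replicate 1 on the sugar diet. The same was not counted over all genes called higher, so this order is not a result about translation factors. The spread of the 8 genes between sugar diet libraries was wide, with coefficients of variation from 26.8% to 72.7%, against a median of 8.27% for the 40 abundant members. Counting noise weighs more on rare genes, and the spread of other genes of like abundance was not compared. The summed level of the 8 genes was 22.5, 33.6 and 67.0 CPM in sugar diet replicates 1 to 3 and 0.831, 0.793 and 0.854 CPM in control diet replicates 1 to 3. They lie on chromosomes 3L (3 genes), 3R (3 genes), X and 2R, and like 46 of the 50 members they share no exon bases with another gene on their strand. Counts without strand came to 146% of the sense counts for *eIF3g2* and 121% for *eIF4E4*, and to at most 111% for the other 6.

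Testis markers moved with these 8 genes. The testis list without *bol* (28 genes) summed to 470, 727 and 1458 CPM in sugar diet replicates 1 to 3 and to 22.9, 22.5 and 26.1 CPM in control diet replicates 1 to 3, so the sugar diet libraries stood in the same order as for the 8 genes. *bol* was left out after its values were seen, because this testis gene alone gave 473 to 546 CPM on the sugar diet and 456 to 514 CPM on the control diet. With it the 29 genes ranged from 943 to 1956 CPM on the sugar diet and from 478 to 540 CPM on the control diet. All 29 had a read in some library of each diet, and 28 on the sugar diet and 12 on the control diet had more than 3 counts in every library. For every 1000 counts of the 28 testis genes the 8 translation factor genes had 47.8, 46.2 and 46.0 counts in the sugar diet libraries and 36.2, 35.2 and 32.7 in the control diet libraries, which rest on 10 to 20 counts of the 8 genes in each. This ratio depends on leaving out *bol* after its values were seen and was not formed for the full list of 29. The 8 genes were also picked because they rose, so the ratio is a description and not a test.

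Markers of other organs outside the head moved too. The 12 accessory gland genes ranged from 92.0 to 284 CPM on the sugar diet and from 0.634 to 3.90 CPM on the control diet, with 1 gene at 0 in every control diet library. The 8 midgut genes ranged from 123 to 454 CPM on the sugar diet and from 6.94 to 22.7 CPM on the control diet. In both lists sugar diet replicate 3 was again the highest library. The 7 yolk and eggshell genes ranged from 38.5 to 42.7 CPM on the sugar diet and from 50.1 to 2340 CPM on the control diet, with the highest value in control diet replicate 2. The part of RNA from these organs in the rise of the 8 genes was not tested.

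**Figure D4:**
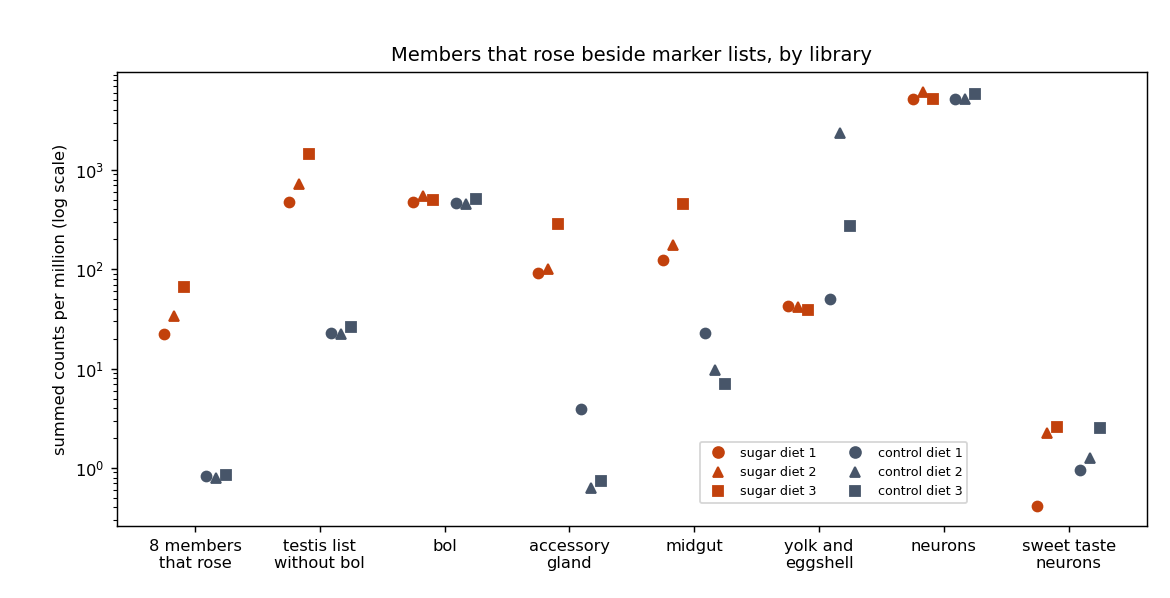
Summed CPM (y axis, log scale) of the 8 members that rose and of marker lists, in each of the 3 sugar diet and 3 control diet libraries (circle, triangle and square for replicates 1, 2 and 3). The 8 members (22.5 to 67.0 on the sugar diet, 0.793 to 0.854 on the control diet) and the testis list without *bol* (470 to 1458 on the sugar diet, 22.5 to 26.1 on the control diet) are ordered alike, while neuron markers are level.

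The group listed here under start codon selection was broad and held 9 genes, *eIF2A*, *eIF2D* and *eIF5B* among them. All 9 were practically unchanged, with log2 fold changes from −0.22 to 0.10. *eIF1A* and *eIF1*, whose products keep the small subunit in a scanning state, were the most abundant of them per length. *eIF1A* had 5679, 5011 and 4864 normalized counts on the sugar diet and 6067, 5598 and 5798 on the control diet, overlapping in sugar diet replicate 1. *eIF1* had 1288, 1252 and 1413 on the sugar diet and 1370, 1229 and 1512 on the control diet. The subunits of eIF2 were equally level, at 0.07 ± 0.15 for *eIF2alpha*, 0.10 ± 0.13 for *eIF2beta* and −0.09 ± 0.12 for *eIF2gamma* (log2 fold change ± SE). *eIF5*, whose product triggers GTP hydrolysis by eIF2, was practically unchanged too. In the annotation used here 80.8% of its exon bases are shared with *CG46312* on the same strand, a gene whose identifier is not in the count tables used here. *eIF2gamma* shares 16.0% of its exon bases with *Su(var)3-9*.

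The 5 subunits of eIF2B, the exchange factor on which stress signals converge, were low and level. Per length they lay between 6.87 and 11.3 CPM per kilobase on the sugar diet and between 6.97 and 9.28 on the control diet, below each main eIF3 subunit gene. *eIF2Balpha*, *eIF2Bbeta*, *eIF2Bgamma* and *eIF2Bdelta* were practically unchanged. *eIF2Bepsilon*, the catalytic subunit, had a log2 fold change of −0.24 with an interval from −0.68 to 0.21, and control diet replicate 2 was its highest library at 476 normalized counts. *eIF6*, which keeps the large subunit from joining too early, had 195, 214 and 229 on the sugar diet and 140, 159 and 209 on the control diet. Its interval, −0.11 to 0.77, allowed neither call.

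Of the 6 elongation factor genes 1 was called lower by DESeq2 and 0 by edgeR, 4 were practically unchanged (that one included), and their median log2 fold change was −0.23. Photoreceptor markers (6 genes, 0 called) had a median of −0.22. They summed to 22560 to 27436 CPM on the sugar diet and 27128 to 30583 CPM on the control diet. Muscle markers (5 genes, 0 called) had a median of −0.26. They summed to 2789 to 3401 CPM on the sugar diet and 3061 to 3504 CPM on the control diet. The median was −0.12 for neuron markers (6 genes, 0 called) and −0.15 for glia markers (4 genes, 1 called lower). For fat body markers (5 genes, 0 called) it was −0.97, at 7801 to 11051 CPM on the sugar diet and 9150 to 10872 on the control diet. The part of these cell types in the values of the elongation factors was not tested. Per length, *eEF2* was the highest of the 50 genes in every library, at 967 ± 42.1 CPM per kilobase on the sugar diet and 1059 ± 94.1 on the control diet (SD, n = 3 each). *eIF4A* followed at 625 ± 53.0 on the sugar diet and 685 ± 37.1 on the control diet. *eEF1gamma* came next, at 488 ± 84.7 on the sugar diet and 586 ± 126 on the control diet, before *eEF1alpha2* at 299 ± 13.1 on the sugar diet and 324 ± 37.6 on the control diet. *eIF4A* and *eEF1gamma* came close to each other, and in no library did *eEF1alpha2* reach either. The levels of the 50 genes spanned 1724-fold, with *eIF3f2* the lowest.

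*eEF1alpha2*, which encodes a copy of the protein that delivers aminoacyl-tRNA to the ribosome, was the only member called lower. It had 14278, 13425 and 12237 normalized counts on the sugar diet and 15725, 14798 and 16791 on the control diet. The groups did not overlap. The log2 fold change was −0.24 ± 0.10 (SE, DESeq2 q = 0.0833), a fall within the 1.5-fold margin, and edgeR did not call it (q = 0.215). The DESeq2 call was also lost with TMM library sizes (q = 0.1), with the replicate block (q = 0.117), settings under which 0.457% and 0.83% of all genes were lower, and without sugar diet replicate 2 (q = 0.199), sugar diet replicate 3 (q = 0.515), control diet replicate 1 (q = 0.249) or control diet replicate 3 (q = 0.265).

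*eEF2*, the translocase gene, had 54757, 45895 and 47961 normalized counts on the sugar diet and 56106, 67711 and 54962 on the control diet. All 3 sugar diet libraries were below the control diet libraries, but the gap between sugar diet replicate 1 and control diet replicate 3 was small, and the test was not passed (log2 fold change −0.27 ± 0.11 SE, DESeq2 q = 0.133). *eEF1gamma*, part of the exchange complex that recharges eEF1alpha, had 17464, 11354 and 12945 on the sugar diet and 18449, 23152 and 13580 on the control diet. The libraries overlapped, and its interval from −0.78 to −0.02 was too wide for a call of equivalence. The other exchange subunit genes were within the margin. *eEF1beta* had 2390, 1853 and 2012 on the sugar diet and 2587, 2713 and 1948 on the control diet, and *eEF1delta* had a log2 fold change of −0.02 ± 0.14 (SE). *eEFSec*, the rare factor for selenocysteine, had 27.1 to 41.8 normalized counts on the sugar diet and 30.5 to 45.4 on the control diet.

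**Figure D5:**
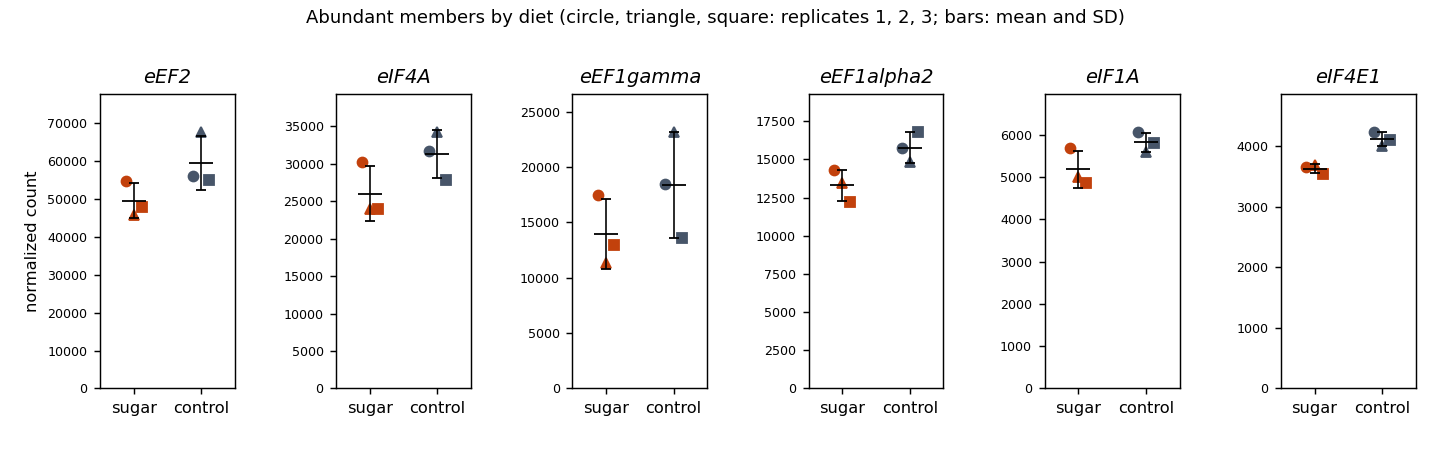
Normalized counts (y axis, from 0) of 6 abundant members in the 3 sugar diet and 3 control diet libraries (circle, triangle and square for replicates 1, 2 and 3), with the mean and SD as bars. *eEF1alpha2*, *eEF2* and *eIF4E1* do not overlap between diets and differ by less than 1.5-fold, while *eIF4A*, *eEF1gamma* and *eIF1A* overlap in sugar diet replicate 1.

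The number of abundant members called lower depended on single libraries. Without sugar diet replicate 1, DESeq2 called 7 members lower (*eEF1alpha2*, *eEF1gamma*, *eEF2*, *eIF1A*, *eIF3f1*, *eIF3l* and *eIF4A*), beside 3.5% of all genes, out of 15 called in either direction, beside 17.9%, and without control diet replicate 3 it called 5, beside 1.52%. Without sugar diet replicate 2, sugar diet replicate 3 or control diet replicate 1 it called 0, beside 0.228%, 0.0795% and 0.153%, and without control diet replicate 2 it called 2, beside 0.525%. The number called higher, and called at all, was 6 without sugar diet replicate 3, beside 9.48% and 9.56%. With the replicate block 7 were called higher, beside 11.8%. In the fit of all libraries without a block, 0 were called lower at q under 0.05, beside 0.217%. Of the 40 abundant members, 26 were highest in replicate 1 among the sugar diet libraries, and 20 had their highest value of all libraries in control diet replicate 2. The same was not counted over all genes of that abundance, so this is not a result about translation factors. Groups that did not overlap were higher on the sugar diet for 9 members (18%, the 8 that rose and *eIF2Bbeta*), beside 18.1% of all genes. They were lower for 7 members (14%: *eEF1alpha2*, *eEF2*, *eIF2Bgamma*, *eIF3b*, *eIF4E1*, *eIF4EHP* and *eIF5*), beside 6.02% of all genes. These 7 are all among the 40 abundant members, while the 6.02% covers genes of every abundance. The share over all genes of that abundance was not counted, so the 14% is not a result about translation factors.

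The remaining abundant eIF3 genes named by their level gave the same picture of small differences. *eIF3b*, which forms the core of the complex together with eIF3a, had 5125, 4488 and 4957 normalized counts on the sugar diet and 5247, 6081 and 5402 on the control diet (log2 fold change −0.20 ± 0.10 SE). *eIF3m* had 4097, 3555 and 3816 on the sugar diet and 4157, 4825 and 3773 on the control diet (−0.15 ± 0.12). *eIF3l* had 3693, 2887 and 2994 on the sugar diet and 3902, 4466 and 3369 on the control diet (−0.29 ± 0.14), and *eIF3k* had 1905, 1379 and 1558 on the sugar diet against 1931, 1987 and 1444 on the control diet (−0.15 ± 0.16). Only *eIF3b* had groups that did not overlap, and none of the 4 passed the test.

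Summed over all 50 genes, translation factors took 1.16%, 1.09% and 1.12% of counts in the sugar diet libraries and 1.14%, 1.24% and 1.16% in the control diet libraries. The 8 genes that rose made up 0.194%, 0.309% and 0.599% of these counts on the sugar diet and 0.00637% to 0.00737% on the control diet. These 8 genes were thus a minor part of translation factor RNA on both diets.

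Other genes of translation control were read from the same fit. Of 40 genes listed, covering termination and recycling, partners of the cap and the poly(A) tail, eIF2 kinases, TOR signalling and mitochondrial factors, 38 were in the tables and 37 were tested. DESeq2 called 0 higher, beside 14.0% of all genes, and 1 lower, beside 0.54%. The list had 33 practically unchanged genes, beside 40.6% of all genes, and a median log2 fold change of 0.01, against 0.01 over all genes. Most of the listed genes averaged 100 or more normalized counts. Over all genes of that abundance 3.86% were called higher, 0.929% lower and 83.0% practically unchanged, with a median of −0.04. The gene called lower was *Lk6*, whose product is a kinase of eIF4E, with 87214, 74319 and 68370 normalized counts on the sugar diet and 91712, 99552 and 89528 on the control diet (log2 fold change −0.29 ± 0.11 SE, DESeq2 q = 0.0645, edgeR q = 0.27). edgeR called 0. In DESeq2, 5 of the list had an unadjusted p under 0.05, beside 2628 of the 16134 genes with a count. Of the genes that averaged 100 or more normalized counts, 649 of 7749 did. Without sugar diet replicate 1 DESeq2 called 5 in either direction, beside 17.9% of all genes, and without control diet replicate 3 it called 2, beside 14.3%. It called 0 without sugar diet replicate 2, sugar diet replicate 3, control diet replicate 1 or control diet replicate 2, beside 12.4%, 9.56%, 12.5% and 14.2%.

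Among the best known partners, *Thor*, the *Drosophila* 4E-BP that binds eIF4E and blocks initiation, had 1077, 1298 and 1617 normalized counts on the sugar diet and 983, 854 and 1313 on the control diet. The libraries overlapped, and at 0.34 ± 0.19 (log2 fold change ± SE, DESeq2 q = 0.352) neither change nor equivalence was called. *pAbp*, the poly(A)-binding protein gene, had 58105, 44999 and 40188 on the sugar diet and 63626, 60646 and 46424 on the control diet, an overlapping and practically unchanged pair of groups (−0.25 ± 0.16). The termination factor genes *eRF1* (0.01 ± 0.13) and *eRF3* (−0.13 ± 0.09) and *NAT1*, a relative of eIF4G (−0.04 ± 0.09), were practically unchanged as well. For the 50 initiation and elongation factor genes, counts of the opposite strand gave 0 calls by DESeq2 and 0 by edgeR, with 1 at an unadjusted p under 0.05.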

How the data were processed

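RNA-seq was performed by the study on 6 libraries, 3 per diet, ribosomal RNA depleted and prepared with a stranded kit. The authors deposited, for each library, unnormalized read counts by gene after alignment to dm6 (BDGP6) with STAR. The submitters' notes also name HTSeq, SAMtools 1.4 and DESeq2 1.18.0, while the layout is that of STAR. Neither the version of the aligner nor the release of the annotation was given in the sources used here. Lines that name no gene (40.9% to 47.3% of reads, including reads mapped to several places) were left out. The sense column, 97.0% to 97.3% of stranded counts, was used, and the unstranded and opposite-strand columns served as checks. Symbols matched 17215 of 17489 identifiers, and 274 had none. Coordinates and exon lengths are from Ensembl release 115 on the same build.

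DESeq2 1.42.0 (R 4.3.3) was fitted to the 16134 genes with a count. The Wald test (two-sided here) and q under 0.1 follow the study, while the lack of shrinkage and of a block and the use of independent filtering were chosen here. Practical equivalence within 1.5-fold used its standard errors and a normal distribution. edgeR 4.0.16 (quasi-likelihood, filterByExpr, TMM) was the first alternative. The others were unstranded counts, a filter of 10 counts in 3 libraries, TMM library sizes, a replicate block, q under 0.05, a 2-fold margin and leaving out each library. Named genes are every called member, every paralog family member, the 12 members with the highest level per length, and those standing outside these rules, which were chosen after their values were seen. The members and lists were chosen with earlier results of these data known. Replicate numbers come from the titles, which do not say whether a number links libraries across diets. Each biological replicate was made from 300 heads, so the libraries were taken to hold different animals. Chi-square per degree of freedom between same-diet libraries was 19.4 to 56.4. On simulated counts of 16134 genes with 200 changed, DESeq2 recovered 85.7% of 2-fold and 97% of 3-fold changes with 20.9% false calls, and edgeR recovered 76.7% and 92.7% with 10.5% false calls.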

Additional observations from a re-analysis of the deposited data

How the results depend on the processing

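The 6 genes *eIF4E3*, *eIF4E4*, *eIF4E5*, *eIF4E7*, *eIF4H2* and *eIF3d2* were called higher on the sugar diet by every alternative run, and *eIF3f2* by all but the one without sugar diet replicate 3. The number of members called was 9, with 6 to 15 when each library was left out in turn. The number called higher was 8 and ranged from 6 to 8 on leaving out a library. The number called lower was 1. It was 0 with edgeR, TMM library sizes, the replicate block or q under 0.05, and 0 to 7 on leaving out a library. The number called practically unchanged (37) ranged from 28 to 38. Of the translation control list 1 gene was called, against 0 with edgeR or q under 0.05, 3 with the replicate block, and 0 to 5 on leaving out a library. The median log2 fold change of the members ranged from −0.17 to −0.06 on leaving out a library. The difference in the summed share of *eIF4E3* to *eIF4E7* was 13.5 percentage points, 9.51 to 16.2 on leaving out a library, and 4.61 without division by exon length, which weights the long *eIF4E1* and *eIF4EHP* more. On leaving out a library the difference in share ranged from 1.96 to 3.64 points for *eIF3d2*, 0.715 to 1.76 for *eIF3g2*, 0.675 to 0.93 for *eIF3f2*, 5.14 to 9.14 for *eIF4H2* and 1.77 to 4.17 for *eIF4G2*, the lowest of each being without sugar diet replicate 3. Log2 fold changes near 0 turned in sign on leaving out a library for *eEF1delta* (−0.10 to 0.051, with 0.017 without sugar diet replicate 2 and 0.051 without control diet replicate 3), *eIF1* (−0.13 to 0.0048, without control diet replicate 3) and *eIF3d1* (−0.067 to 0.035, with 0.0051 without sugar diet replicate 1, 0.017 without sugar diet replicate 2 and 0.035 without control diet replicate 2), none of them called. The cause of the other differences was not tested. Same-numbered libraries of the 2 diets gave r = 0.03, −0.04 and −0.10 between their deviations from the diet means. Different-numbered libraries gave r from −0.18 to 0.20. With 3 libraries per diet these values cannot decide whether the numbers pair libraries. With the replicate block DESeq2 called 7 members higher. The 8 rare genes each had 1 to 10 reads over the control diet libraries. The size of their rise is known no better than the counting intervals given, which leave out the spread between libraries.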
